A study of Homo sapiens with 8 samples.

Results

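The ISG15 conjugation and deconjugation system is the set of genes that makes, attaches and removes ISG15, a small ubiquitin-like protein. It was taken here as 6 genes: ISG15 itself, UBA7, UBE2L6, HERC5, HERC6 and USP18. Every probe that the platform annotation pairs with one of these symbols was used, which gave 8 of the 47312 probes on the array. After the filter on dim probes the 6 genes stood among 17297 genes or unnamed probes tested. The set was chosen by function, with the normalized log2 intensities of its genes in siHBO1 and siCTRL on these same arrays already known. The array study used OVCAR-3, an ovarian carcinoma cell line of human origin, and compared cells given siRNA against HBO1 (siHBO1, 4 arrays) with cells given scramble siRNA (siCTRL, 4 arrays). HBO1 is the older name of KAT7, a histone acetyltransferase. Both groups were the same line, transfected in multiwell plates and sampled 48 h later. The labels give neither the siRNA sequences nor whether the 4 replicates were separate cultures, so the spread between arrays may be technical.

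ISG15 is made as a precursor and joined to lysines of other proteins through a cascade like that of ubiquitin. UBA7 is the E1 that activates it, UBE2L6 the E2 that carries it, and HERC5 the main E3 ligase in human cells. HERC6 is the related ligase that serves this role in mouse. USP18 is the protease that cuts ISG15 off its targets, and, apart from that activity, it binds the interferon receptor chain IFNAR2 and restrains signalling. Interferon induces the whole set through the factor ISGF3, which binds promoter elements built from repeats of GAAA.

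That element could be read in the RefSeq promoter table (GRCh38.p14), which held upstream windows for ISG15, HERC5, HERC6 and, with 2 start sites, UBE2L6. The 250 bases before the start of ISG15 (chr1:1013247-1013496, plus strand), of HERC5 (chr4:88456869-88457118, plus strand) and of HERC6 (chr4:88378602-88378851, plus strand) are shown because they contrast the modifier and 2 nearby ligase genes in this element. They run 5′ to 3′ on the gene's own strand, they are reference sequence and not that of the cell line, and capitals mark every match to GAAANNGAAA on either strand.
ISG15: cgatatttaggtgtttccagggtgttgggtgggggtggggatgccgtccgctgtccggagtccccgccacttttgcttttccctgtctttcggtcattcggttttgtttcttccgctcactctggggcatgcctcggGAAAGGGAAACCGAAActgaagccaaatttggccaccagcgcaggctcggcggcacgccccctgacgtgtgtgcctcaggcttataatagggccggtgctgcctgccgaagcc
HERC5: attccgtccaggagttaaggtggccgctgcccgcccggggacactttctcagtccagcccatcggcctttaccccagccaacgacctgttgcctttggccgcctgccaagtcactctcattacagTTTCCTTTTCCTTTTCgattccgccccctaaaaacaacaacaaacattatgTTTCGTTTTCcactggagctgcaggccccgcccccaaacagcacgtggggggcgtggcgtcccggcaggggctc
HERC6: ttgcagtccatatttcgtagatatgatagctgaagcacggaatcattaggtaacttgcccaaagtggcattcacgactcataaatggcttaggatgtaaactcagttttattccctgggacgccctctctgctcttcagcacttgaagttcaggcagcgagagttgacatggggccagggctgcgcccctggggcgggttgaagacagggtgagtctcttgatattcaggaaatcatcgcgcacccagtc

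Upstream of ISG15, 2 overlapping matches to GAAANNGAAA formed a run of 3 GAAA repeats from 113 to 98 bases before the start, on the gene's strand. The HERC5 window held 3 matches, all on the opposite strand. Of these, 2 overlapped in a run of 3 repeats from 125 to 110 bases before the start, and 1 lay between 74 and 65 bases before it. HERC6 and both UBE2L6 windows had 0 matches, which says only that these letters are not in these windows. Of 35116 promoter windows of the same length, 1061 (3.02%) held GAAANNGAAA on either strand and 44 (0.125%) held the longer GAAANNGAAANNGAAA, as ISG15 and HERC5 do. The interferon-gamma element TTCNNNGAA, which reads the same on both strands, was in 2306 windows (6.57%) and in none of the 5 windows of these genes. A match is a description of letters and not evidence of a bound site.

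Between 20504 and 22111 probes were detected on each array. KAT7, the targeted gene, had normalized log2 intensities of 6.66, 6.86, 7.04 and 7.43 on siHBO1 replicates 1 to 4 and of 7.67, 7.97, 7.93 and 7.35 on siCTRL replicates 1 to 4. The array labelled siHBO1 replicate 4 was thus within the siCTRL range. The KAT7 probe was dim, with intensities of 269 to 458 on the siHBO1 arrays and 338 to 531 on the siCTRL arrays and detection p-values of up to 0.0208, which limits this check. The replicate 4 arrays also had their own median in the authors' processed values, 6.63 against 6.57 on the other 6, and both replicate 1 arrays stood apart from the other 6 on the first principal component (58.2% of the variance). Differences of the 6 genes are therefore also given below without both replicate 1 arrays, and without siHBO1 replicate 4. Without both replicate 4 arrays the log2 differences, siHBO1 minus siCTRL, were 1.65 for ISG15, 0.41 for UBA7 and 0.49 for UBE2L6. They were 1.11 for HERC5, 1.48 for HERC6 and 1.36 for USP18. Of 11 markers of ovarian carcinoma epithelium, 10 were detected on at least 4 arrays, PAX8, EPCAM and MUC16 among them, and ESR1 on 0. Of the markers of other cell types, 3 of 8 for leukocytes (CD14, CD68 and ITGB2), 2 of 5 for fibroblasts (COL1A1 and COL1A2) and 1 of 4 for endothelium (VWF) were detected on at least 4 arrays. Detected on 0 of the 8 arrays were 4 leukocyte markers (PTPRC, CD3E, LYZ and ITGAL) and 2 fibroblast markers (COL3A1 and PDGFRB). The same held for 2 endothelial markers (PECAM1 and CDH5).

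For each of the 6 genes the siHBO1 arrays all stood above the siCTRL arrays, as for 1.35% of all genes, and siHBO1 was higher in every numbered pair, as for 6.96%. The size of the difference set 4 genes apart from the other two. ISG15, HERC6, USP18 and HERC5 were 2.67-fold, 2.55-fold, 2.39-fold and 2.01-fold higher. UBE2L6, read on its brightest probe, and UBA7, the enzymes that carry and activate ISG15, were 1.39-fold and 1.34-fold higher. A dimmer UBE2L6 probe gave a log2 difference of 0.67, with overlapping groups. Since this contrast was known when the genes were chosen, these differences are a description and carry no test. The RNA came from whole wells, so more responding cells and more RNA per cell cannot be told apart. The 95% intervals below come from the fit across all genes.

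ISG15 had normalized log2 intensities of 14.08, 14.32, 14.39 and 13.91 on siHBO1 replicates 1 to 4, against 12.17, 13.20, 12.46 and 13.19 on siCTRL replicates 1 to 4. The lowest siHBO1 array was 0.70 above the highest siCTRL array, and siCTRL replicates 1 and 3 were clearly below siCTRL replicates 2 and 4. The fitted log2 difference was 1.42 (SE 0.24, 95% interval 0.87 to 1.96, n = 4 each). Before normalization the intensities of its 1 probe, ILMN_2054019, were 15638, 18224, 19076 and 18505 on the siHBO1 arrays, and 3409, 11069, 6479 and 10565 on the siCTRL arrays. This is a bright probe on both sides, below the highest intensity of each array, which ran from 25662 to 43275. That highest intensity was 37402 on siHBO1 replicate 4, 39124 on siCTRL replicate 1 and 43275 on siCTRL replicate 3. On the other arrays it did not exceed 27878. ISG15 lay below its group mean on these high-range arrays, and also on siHBO1 replicate 1. A link between the range of an array and its ISG15 value was not tested. Without replicate 1 in both groups the ISG15 difference was 1.26, and without siHBO1 replicate 4 it was 1.51.

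UBA7, the E1, was the member with the smallest difference. Its 1 probe gave 9.09, 9.57, 9.08 and 9.36 on the siHBO1 arrays and 8.96, 8.73, 8.84 and 8.90 on the siCTRL arrays. The groups did not overlap, but only 0.12 lay between the lowest siHBO1 and the highest siCTRL value. The log2 difference was 0.42 (SE 0.13, 95% interval 0.13 to 0.72), with 0.84 in the replicate 2 pair and 0.13 in the replicate 1 pair. Leaving out replicate 1 gave 0.52, and leaving out siHBO1 replicate 4 gave 0.39.

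UBE2L6, the E2, was read by 3 probes that did not behave alike. The brightest, ILMN_1769520, stood at 13.47, 13.91, 13.65 and 13.85 on the siHBO1 arrays, against 13.08, 13.20, 13.28 and 13.42 on the siCTRL arrays. On this probe the groups lay apart by only 0.05, with siHBO1 replicate 1 just above siCTRL replicate 4, and the log2 difference was 0.48 (SE 0.13, 95% interval 0.19 to 0.77). A dimmer probe of the same transcript, ILMN_1703108, gave 10.42, 11.11, 11.12 and 11.34 on the siHBO1 arrays and 9.61, 10.60, 10.31 and 10.78 on the siCTRL arrays. Its difference was larger, 0.67, but its groups overlapped, because siHBO1 replicate 1 lay below siCTRL replicates 2 and 4. Within each numbered pair the dimmer probe was higher in siHBO1, by 0.81, 0.51, 0.81 and 0.56. The third probe, ILMN_2252495, is annotated to another transcript record of UBE2L6 and was detected on 0 of the 8 arrays. Without replicate 1 the difference on the brightest probe was 0.51, and without siHBO1 replicate 4 it was 0.43.

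HERC5, the ligase, had 13.04, 13.40, 13.18 and 13.25 on the siHBO1 arrays, against 11.69, 12.45, 12.13 and 12.57 on the siCTRL arrays. All siHBO1 arrays were at least 0.47 above all siCTRL arrays, and the lowest value of the 8 was siCTRL replicate 1. The log2 difference was 1.01 (SE 0.19, 95% interval 0.58 to 1.43). It was 0.89 without replicate 1 and 0.99 without siHBO1 replicate 4.

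HERC6 lies close to HERC5 on chromosome 4, with 1 other gene start between them, and showed the widest gap between groups. Its values were 11.84, 12.05, 11.79 and 11.78 on the siHBO1 arrays, and 9.85, 10.87, 10.53 and 10.83 on the siCTRL arrays. The 4 siHBO1 arrays lay close together, 0.91 above the highest siCTRL array, and siCTRL replicate 1 was again the lowest. The log2 difference was 1.35 (SE 0.21, 95% interval 0.87 to 1.83), with 1.13 when replicate 1 was left out and 1.38 when siHBO1 replicate 4 was left out.

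USP18, the protease, ranked the siCTRL arrays in the same order as HERC6. It stood at 10.90, 11.10, 10.73 and 10.78 on the siHBO1 arrays, against 9.04, 10.14, 9.47 and 9.83 on the siCTRL arrays. The groups were 0.58 apart, and the log2 difference was 1.26 (SE 0.22, 95% interval 0.76 to 1.75), or 1.05 without replicate 1 and 1.29 without siHBO1 replicate 4. USP18 has a near-identical copy, USP41, whose transcripts its single probe might also bind; USP41 was not analysed here.

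**Figure D1:**
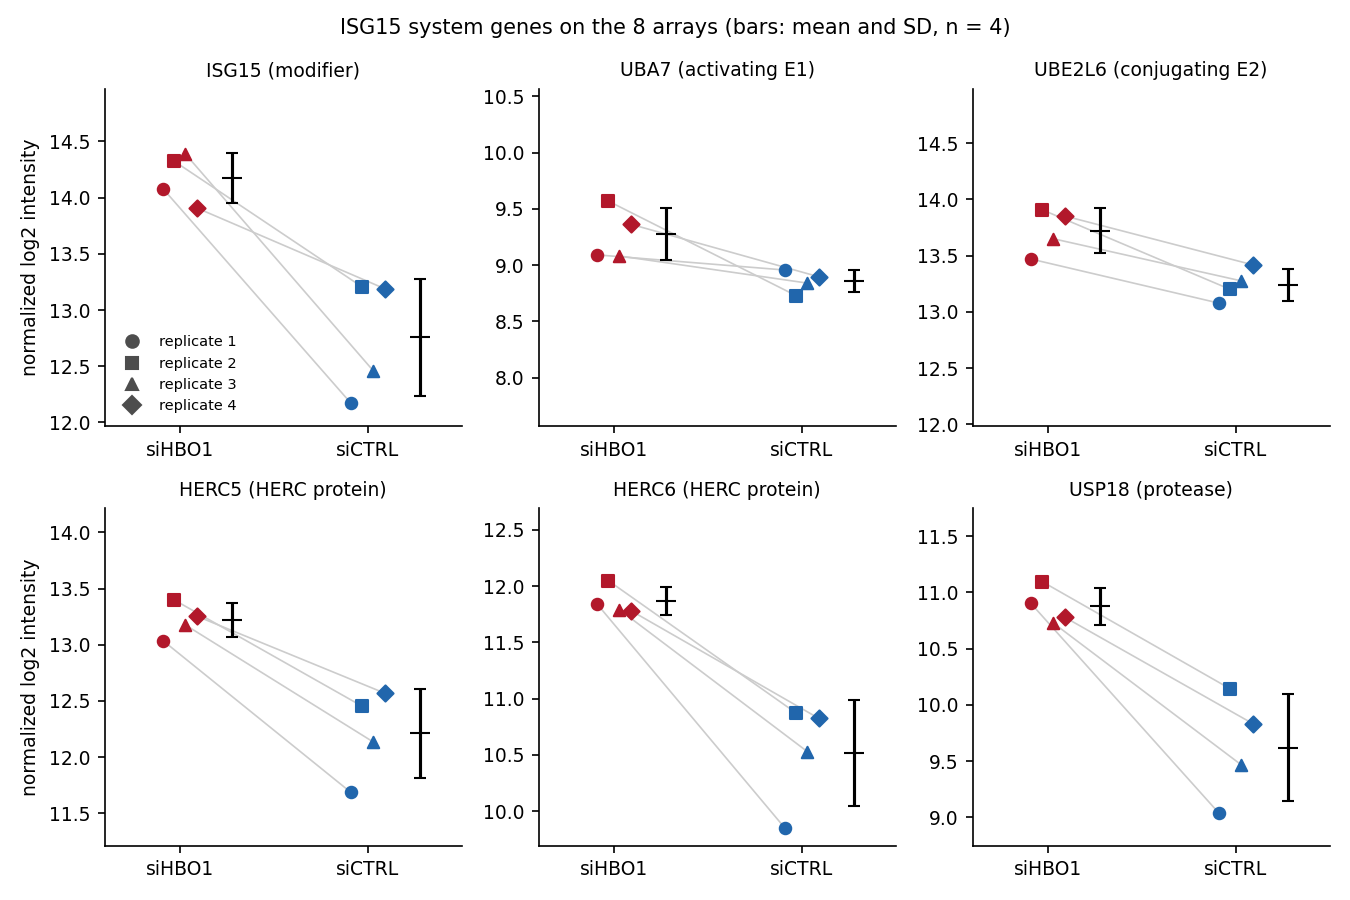
Normalized log2 intensity (y axis) of each ISG15 system gene on the 4 siHBO1 arrays (red) and the 4 siCTRL arrays (blue); symbols give the replicate number, grey lines join arrays of the same number, and black bars are the mean and SD (n = 4). All panels span 3 log2 units. ISG15, HERC5, HERC6 and USP18 are spread widely over the siCTRL arrays and lie closer together on the siHBO1 arrays, while UBA7 and UBE2L6 differ less between the groups.

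By numbered pair, the median difference of the 6 genes was 1.61, 0.95, 1.15 and 0.70 for replicates 1 to 4, and 6 of 6 genes were positive in each. The smallest median was that of the replicate 4 pair, in which KAT7 was 0.08 higher in siHBO1 and not lower. In the pairs of replicates 1 to 3 the KAT7 difference was -1.01, -1.10 and -0.89. The pair with the lowest KAT7 difference, replicate 2, thus had the next smallest median. A link between KAT7 and these differences was not tested. In the replicate 4 pair ISG15 was 0.72 higher, USP18 0.95, HERC6 0.96 and HERC5 0.68. UBA7 was 0.47 and UBE2L6 0.43 higher there, which for neither was its smallest difference. The replicate 1 pair had the largest differences for HERC5, HERC6 and USP18 (1.35, 1.99 and 1.86) and the smallest for UBA7 (0.13). ISG15 had its largest in the replicate 3 pair, at 1.93, next to 1.91 in the replicate 1 pair. The order of the members was therefore not the same in every pair.

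**Figure D2:**
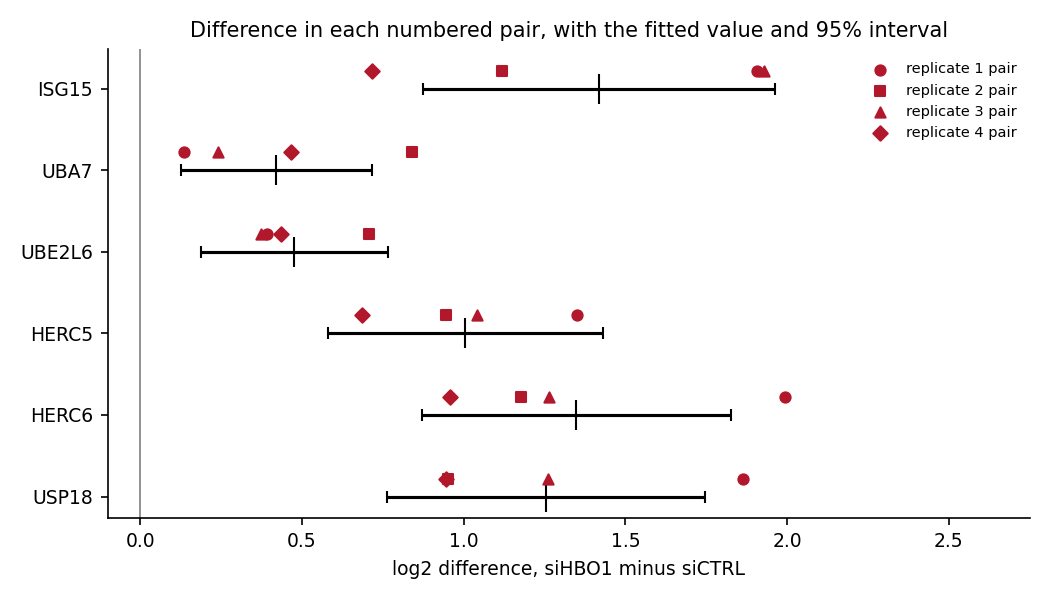
Log2 difference, siHBO1 minus siCTRL (x axis), of each gene in the 4 numbered pairs (red symbols) and in the fit over all 8 arrays (black mark with its 95% interval). Every point lies above 0, from 0.13 for UBA7 in the replicate 1 pair to 1.99 for HERC6 in the same pair.

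In the fit across all 17297 genes (limma, Benjamini-Hochberg over all genes), 0 of the 6 passed the threshold of 0.05 without a replicate block, where 6 genes did in all (0.0347%). The adjusted p-values of the members ran from 0.110 for HERC6 to 0.802 for UBA7, and 6 of 6 had an unadjusted p under 0.05, against 3.79% of all genes. With the replicate number as a block 58 genes passed (0.335%), among them HERC5, HERC6 and USP18, at adjusted p = 0.0354, 0.0384 and 0.0384. ISG15 had an adjusted p of 0.0696 there, UBE2L6 of 0.194 and UBA7 of 0.449. Under the block, leaving out replicate 1, 2 or 3 in both groups left 0 members past the threshold, and leaving out replicate 4 left 3 (ISG15, HERC5 and HERC6). All siHBO1 arrays lay above all siCTRL arrays for 6 of the 6 genes, as they did for 1.35% of all genes. Since the contrast was known when the genes were chosen, nothing is read from these counts. The median of the 6 log2 differences was 1.13, beside -0.01 over all genes tested.

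The spread within siCTRL was larger for ISG15, HERC5, HERC6 and USP18 than for UBA7 and for UBE2L6 on its brightest probe. This spread comes from the same known intensities as the difference between the groups, and siCTRL replicate 1 enters both. Among the siCTRL arrays the SD was 0.52 for ISG15, 0.39 for HERC5, 0.47 for HERC6 and 0.48 for USP18, which put these genes at or above the 89.2 percentile of SD over all genes tested. UBA7 and UBE2L6 had siCTRL SDs of 0.10 and 0.14, below the median of all genes (0.19). Among the siHBO1 arrays the SDs of the 6 genes ran from 0.12 to 0.24, around the median of all genes (0.21). ISG15, HERC5, HERC6 and USP18 therefore varied more between siCTRL arrays than between siHBO1 arrays, and UBA7 and the brightest UBE2L6 probe varied less. For HERC5 and HERC6 much of this spread came with siCTRL replicate 1, and for ISG15 and USP18 less of it did. The median SD over all genes also fell when that array was left out, from 0.19 to 0.14. Without that array, a comparison chosen after seeing the data, the siCTRL SD was 0.23 for HERC5 and 0.19 for HERC6, at the 76.2 and 66.4 percentiles of all genes on the same 3 arrays (median 0.14). It was 0.43 for ISG15 and 0.34 for USP18, at the 97.0 and 92.2 percentiles, and 0.09 for UBA7 and 0.11 for UBE2L6. On the dimmer UBE2L6 probe the SD was 0.40 in siHBO1 and 0.51 in siCTRL, and the siCTRL value was 0.24 without replicate 1. The difference between the groups' SDs was not tested.

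ISG15, HERC5, HERC6 and USP18 deviated together mainly on the siCTRL arrays. The siCTRL replicate 1 array deviated from the siCTRL mean by -0.58, -0.52, -0.67 and -0.58 log2 units for ISG15, HERC5, HERC6 and USP18. UBE2L6 deviated the same way by -0.17 on its brightest probe and -0.71 on the dimmer one, and UBA7 the other way by 0.10. After subtracting each group's mean, the 6 pairs among ISG15, HERC5, HERC6 and USP18 had Pearson r of 0.86 to 0.95 over the 8 arrays. Over the 6 arrays without replicate 1 it was 0.75 to 0.93. These r pool both groups, and the larger siCTRL deviations weigh most in them. On siHBO1 replicate 3 ISG15 deviated by 0.21, but HERC5, HERC6 and USP18 by -0.04, -0.08 and -0.15. On siHBO1 replicate 4 ISG15, HERC6 and USP18 deviated by -0.27, -0.08 and -0.10, and HERC5 by 0.04. On siHBO1 replicate 1 only USP18 was above its mean, by 0.03. All 4 genes were above theirs, by 0.15 to 0.22, on the remaining siHBO1 array. The r within siHBO1 alone was not computed. UBA7 or UBE2L6 paired with one of the 4 gave r of -0.22 to 0.72 over the 8 arrays, and -0.23 to 0.45 without replicate 1. UBA7 with UBE2L6 gave 0.65, and 0.90 without replicate 1. The dimmer UBE2L6 probe tracked HERC5 (r = 0.89) more closely than it tracked the brightest UBE2L6 probe (r = 0.81), with values of 0.73 and 0.37 without replicate 1. These values describe 8 arrays that share RNA, labelling and normalization for all genes, and no test was made on them.

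**Figure D3:**
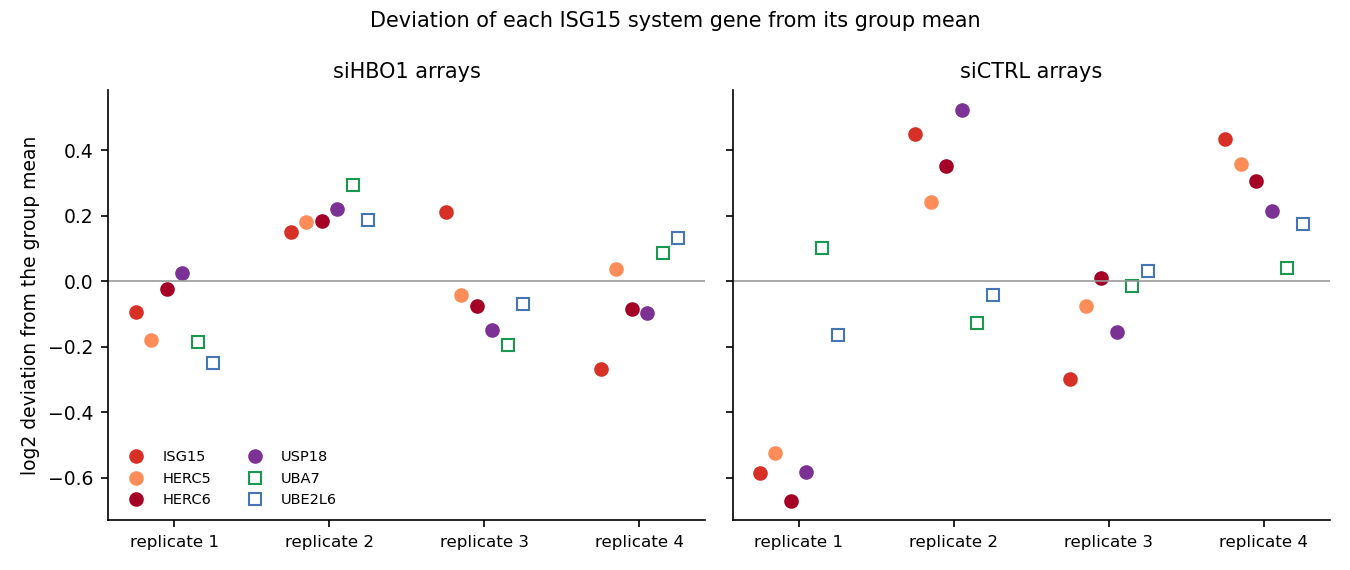
Log2 deviation of each gene from the mean of its group (y axis) on the 4 siHBO1 arrays (left) and the 4 siCTRL arrays (right), by replicate; filled circles are ISG15, HERC5, HERC6 and USP18, open squares UBA7 and UBE2L6. On siCTRL replicate 1 the 4 filled circles sit between -0.52 and -0.67, UBE2L6 at -0.17 and UBA7 at 0.10.

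Ranked by the same within-group r among 12221 other named genes, the closest to HERC5 were TRIM22 (r = 0.993) and DHX58 (r = 0.991), both interferon-induced, and the third was TK2. For USP18 the closest was OAS3 (r = 0.983), also interferon-induced, followed by MAP3K7 and BGLAP. TRIM22, DHX58 and OAS3 had log2 differences of 2.07, 1.14 and 1.32 between siHBO1 and siCTRL. The genes closest to ISG15 (RCCD1, NME1 and BTN3A2), HERC6 (TOMM40L, VIPAS39 and ZNF616), UBE2L6 (PPA2, PPM1H and CD248) and UBA7 (GSTM2, MATN2 and FRRS1) had differences between groups under 0.2 in size, as had 15 of the 18 genes named by this rule. With so many genes ranked over 8 arrays, likenesses of 0.949 to 0.993 were found for every member.

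Partners of the system outside the 6 genes had a median difference of 0.02. Of 11 listed partners 7 were tested and 0 passed with or without the block. Since 0.0347% and 0.335% of all genes passed without and with it, 0 of 7 does not set them apart from other genes. Of the 6 members, 0 passed without the block and 3 with it, and the partners were not tested against them. TRIM25, a ligase for ISG15 that is also induced by interferon, had 11.17, 10.89, 11.00 and 10.87 on the siHBO1 arrays and 10.61, 10.71, 10.54 and 10.70 on the siCTRL arrays. Its groups did not overlap, and its log2 difference was 0.34 (SE 0.10, adjusted p = 0.757). IFNAR2, the receptor chain that USP18 binds, stood at 0.23, and SKP2, part of the ubiquitin ligase that degrades USP18, at -0.09. Other HERC genes gave 0.20 for HERC2, 0.14 for HERC4 and 0.04 for HERC1, with 0 of 3 passing. Ubiquitin proteases reported to accept ISG15 had a median of 0.02 over 6 genes, with USP2 at -0.18, USP13 at 0.12 and USP16 at 0.04, and 0 passing. IRF9, the DNA-binding subunit of ISGF3, stood at 0.80 (SE 0.16, adjusted p = 0.262, and 0.0824 with the block) with groups apart, and the feedback genes SOCS1 and SOCS3 stood at 0.29 and 0.02.

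ISG15 is joined to many proteins, and 14 genes of known targets were tested. Of these, 5 had all siHBO1 arrays above all siCTRL arrays, beside 1.35% of all genes. They were IFIT1 (2.03), IFIT3 (1.48), RIGI (1.10), MX1 (0.82) and EIF2AK2 (0.58), all interferon-induced antiviral genes. RIGI, a sensor of viral RNA, passed over all genes without the block (adjusted p = 0.0442), and RIGI and IFIT3 with it (adjusted p = 0.0155 each), beside 0.0347% and 0.335% of all genes called in those fits. The other 9, among them PCNA, BECN1, TSG101, IRF3 and JAK1, had overlapping groups and differences of -0.08 to 0.19. PML, also induced by interferon, was among these 9 at -0.06, on a dim probe detected on 4 of the 8 arrays. The median of the 14 was 0.11.

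Other ubiquitin-like systems were compared as lists. Over ubiquitin, SUMO, NEDD8, UFM1, FAT10 and the autophagy modifiers, 38 of 55 listed genes were tested and 0 passed with or without the block (limma), beside 0.335% of all genes with the block and 0.0347% without it. An unadjusted p under 0.05 without the block was reached by 1 of the 38, beside 3.79% of all genes, so these counts lie near the shares over all genes. Their median was 0.01, and 37 of the 38 lay within 0.2 of 0. The exception was UBD, which encodes FAT10, a modifier induced by interferon-gamma and tumour necrosis factor. UBD had 7.10, 7.20, 6.99 and 7.12 on the siHBO1 arrays and 6.82, 6.61, 6.46 and 6.58 on the siCTRL arrays. Its groups lay apart with a difference of 0.49 (SE 0.11, adjusted p = 0.372), but the probe was dim and detected on 3 of the 4 siCTRL arrays, so the size is uncertain. UBA6 and UBE2Z, the E1 and E2 of FAT10, stood at 0.07 and 0.18. The largest differences elsewhere were 0.11 for UBE2N, 0.07 for UBA6 and -0.05 for UBB among ubiquitin genes, and 0.10, -0.06 and 0.04 for PIAS3, SAE1 and PIAS2 among SUMO genes. NEDD8 genes gave 0.15 for NAE1 and -0.07 for COPS5 and UBA3, UFM1 genes 0.10 for DDRGK1, -0.09 for UFSP2 and -0.08 for UFM1, and autophagy modifiers -0.17 for ATG10, 0.14 for MAP1LC3B and 0.13 for GABARAP.

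**Figure D4:**
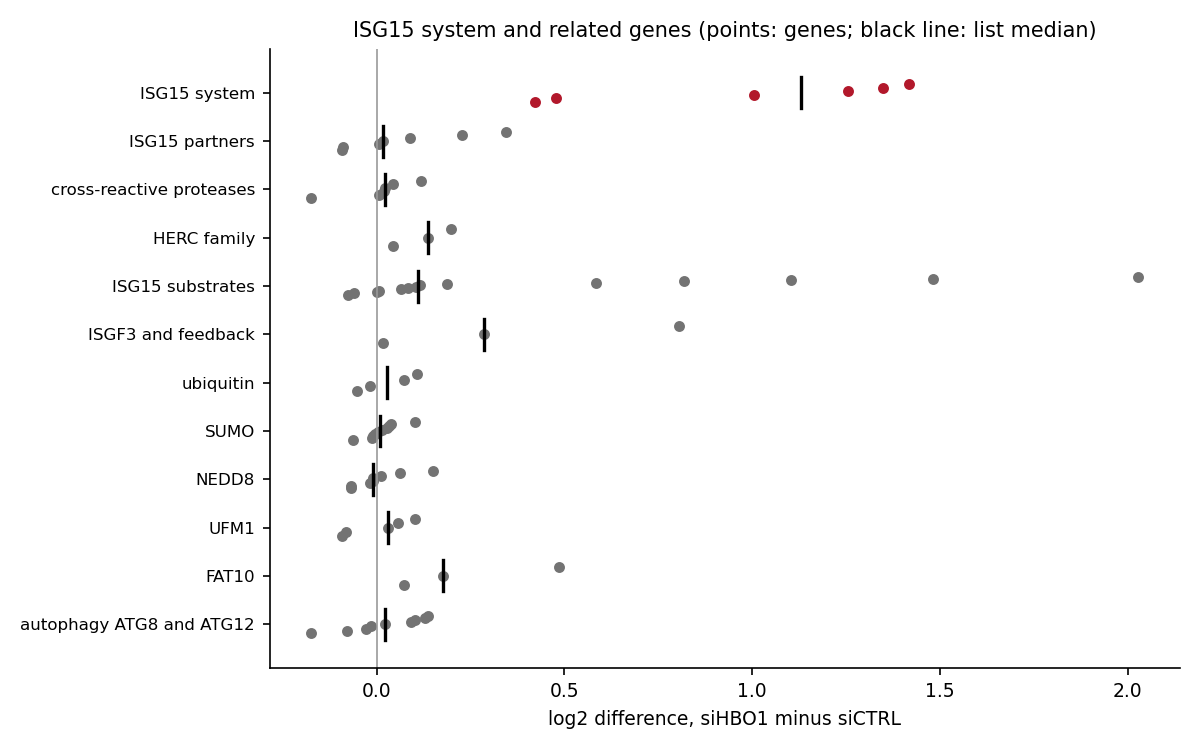
Log2 difference, siHBO1 minus siCTRL (x axis), of the 6 ISG15 system genes (red) and of the tested genes of each related list (grey); black lines are list medians. The median is 1.13 for the ISG15 system and 0.11 for ISG15 substrates, where 5 genes lie at 0.58 or above, while the lists of ubiquitin, SUMO, NEDD8 and UFM1 lie within 0.2 of 0.

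The GAAANNGAAA element shown above was then counted over all tested genes with a promoter window. Of 321 genes with a match, 30 (9.35%) had all siHBO1 arrays above all siCTRL arrays, compared with 122 of 9479 (1.29%) without one. Among the 20 genes that hold the longer run of repeats, as ISG15 and HERC5 do, this was so for 5 (25.0%). For TTCNNNGAA it was 18 of 729 (2.47%) with a match and 134 of 9071 (1.48%) without. The median difference was 0.04 with and -0.01 without GAAANNGAAA. These shares are a description, and ISG15 and HERC5 are counted in them. HERC6 had 0 matches in its window and was among the members that differed most. A role of the element in these differences was not tested.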

How the data were processed

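OVCAR-3 cells given HBO1 or scramble siRNA were profiled on 8 single-colour Illumina arrays, 4 per group, grouped by sample titles. The deposited intensities are linear and not normalized, per the file headers and the values, and each carries a deposited detection p-value. The authors' processed values, on a log2 or similar scale whose transformation is not stated, served as an alternative. GenomeStudio and lumi are named, without versions or settings, per the submitters' processing notes.

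Intensities were background-corrected with nec of limma 3.58.1 (normexp guided by detection p-values; offset of 16), then log2-transformed and quantile-normalized in R 4.3.3. A probe was kept if 4 or more arrays had a detection p under 0.05 (21377 probes). Each gene is shown by the brightest of its kept probes; 12222 of the 17297 carry a symbol. Groups were compared with lmFit and eBayes, siHBO1 minus siCTRL, 2-sided, Benjamini-Hochberg over all genes, threshold 0.05. The procedure was tested on simulated data. Left-out arrays were dropped after normalization. The number of arrays limits the precision.

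Same-numbered arrays deviated together over genes (r = 0.783, 0.324, 0.397 and 0.217 for replicates 1 to 4), all above 0.1. By that rule the numbers of the labels were taken as pairs. The fit with a replicate block is given beside the main one. For replicates 2 to 4 some differently numbered array correlated more strongly (up to 0.404). Only replicate 1 correlated most with its own number (highest r with another number -0.307). For replicates 2 to 4 these values therefore do not show pairing, and the block rests there on the labels alone.

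The 6 genes and the lists of related genes (95 genes, 71 tested, 20 without a probe under their symbol and not analysed here) were chosen with earlier results of these data known. Named were the members, KAT7, up to 3 genes per list with the largest difference, and the 3 genes most like each member; further genes of the lists were named after their values were seen. Symbols come from the supplied platform annotation, matched by Entrez identifier to RefSeq (GRCh38.p14), which also gave the promoter sequences.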

Additional observations from a re-analysis of the deposited data

Results flagged for a closer look

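Among 114 groups of 4 arrays checked for the genes named above, 7 held an array whose gap to its nearest neighbour exceeded Dixon's 95% critical value as a share of the group's range. Chance flags about 5% of such groups. None concerned ISG15, UBA7, UBE2L6, HERC5, HERC6 or USP18. In siHBO1 the gap was 0.859 of the range for HERC2 on replicate 1 (10.74, the next highest 10.11), 0.841 for UBA3 on replicate 1 (11.19, the others 11.75 to 11.85) and 0.889 for DDRGK1 on replicate 1 (11.65, the others 11.91 to 11.94). On siHBO1 arrays it was also 0.847 for HERC4 on replicate 4 and 0.885 for SOCS1 on replicate 2, where SOCS1 stood at 7.49 and the others at 6.69 to 6.78. In siCTRL it was 0.939 for SKP2 on replicate 1 (12.80, the others 13.23 to 13.26) and 0.852 for IFIT3 on replicate 1 (8.92, the others 10.48 to 10.75). Of these arrays 5 were replicate 1 arrays, the pair that the first principal component sets apart.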

How the results depend on the processing

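The log2 differences of the 6 genes stayed positive under all 26 alternatives run, from 1.22 to 1.65 for ISG15, 0.28 to 0.52 for UBA7, 0.40 to 0.58 for UBE2L6, 0.83 to 1.12 for HERC5, 1.13 to 1.48 for HERC6 and 1.05 to 1.43 for USP18. Their median ran from 0.95 to 1.26. The count of members past the threshold, 0 in the report's fit, was 3 with the replicate block, 1 with no background correction (HERC6) and 4 with array weights (ISG15, HERC5, HERC6 and USP18). It was 0 to 1 when 1 array was left out (HERC6 without siCTRL replicate 1) and 0 to 1 without both arrays of a number (HERC6 without replicate 1). With the block and without both arrays of a number it was 0 to 3. UBA7 and UBE2L6 passed in 0 of 26 alternatives.

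Over all genes, 6 passed in the report's fit. The count was 58 with the replicate block, 68 with array weights, 16 with no background correction, 11 with an offset of 50, and 0 with median scaling, with no normalization and with the authors' processed values (limma; 367, 169 and 626 genes at an unadjusted p under 0.05). It was 0 to 5 when 1 array was left out, 0 to 18 without both arrays of a number, and 0 to 31 without both arrays of a number under the block; the lone value of 18 was without replicate 1, where the block gave 1, and the value of 31 was without replicate 4. Of 71 related genes tested, 1 passed without the block and 2 with it. The cause of these changes was not tested. No scaling moved the median of all genes by more than 0.1.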
